A study of Homo sapiens with 4 samples.

Results

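The genes described here encode 10 enzymes of the methionine cycle and of the transsulfuration pathway that leaves it, MAT1A, MAT2A, GNMT, AHCY, BHMT, BHMT2, MTR, CBS, CTH and CDO1. They were taken as every probe set whose annotation held exactly 1 gene symbol and that symbol was among the 10, which gave 18 of 41091 such probe sets and 10 of 19775 genes. The names were chosen by pathway with earlier ratios of these arrays already known, so all counts over the 10 genes are descriptions, and no test was made. RNA came from HepG2, a human liver cancer line with many hepatocyte features, after serum withdrawal, which the design text gives as 24 h and the protocol as overnight. The groups were untreated cells (0 h) and cells given 200 ng/ml APRIL, a ligand of the tumour necrosis factor family, for 2, 6 or 12 h. Each group was 1 Affymetrix U133 Plus 2.0 array, with no replicate and no untreated array at a later time, so the effects of APRIL, of time in culture and of the individual culture cannot be told apart.

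In the methionine cycle, methionine adenosyltransferases turn methionine into S-adenosylmethionine (SAM), the methyl donor of most methylation reactions. Once its methyl group is used, SAM becomes S-adenosylhomocysteine and then homocysteine, which is either remethylated to methionine or passed by transsulfuration to cystathionine and cysteine. Liver carries the largest share of this traffic, and MAT1A, GNMT and BHMT are classed as genes of the differentiated hepatocyte, while MAT2A is the form of dividing and non-hepatic cells. CTH and CBS make cysteine available for glutathione, and CTH is a known target of the amino acid response.

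Every value below is on a log2 scale relative to the median of its own probe set over the 4 arrays, so it shows when a transcript was high or low but not how abundant it was, and levels of different genes cannot be compared. With 4 arrays that median is the mean of the middle pair, which is why 2 values of a probe set often mirror each other. A log2 ratio is the difference between 2 arrays, a gene's ratio is the median over its probe sets, and a log2 ratio of 1 is 2-fold. As a yardstick, the ratios against 0 h had an SD over all genes of 0.18 on the 2 h array, 0.24 on the 6 h array and 0.35 on the 12 h array. These SDs hold true differences between the arrays as well as noise, and do not measure variation between cultures. In such bulk RNA, fewer cells with a transcript and less of it per cell cannot be told apart.

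The start regions of 4 of the genes are shown because they belong to the genes with the clearest time courses and to the pair of methionine adenosyltransferases that went different ways. Each is the 250 bases before the RefSeq transcription start on build GRCh38.p14, written 5′ to 3′ on the strand of the gene. They are CTH at chr1:70411018-70411267 (plus strand), MAT2A at chr2:85538918-85539167 (plus), MAT1A at chr10:80289659-80289908 (minus) and BHMT at chr5:79111559-79111808 (plus). Capitals mark matches to GGGCGG, the GC box, and to TATAAA, the TATA box, on either strand.
CTH: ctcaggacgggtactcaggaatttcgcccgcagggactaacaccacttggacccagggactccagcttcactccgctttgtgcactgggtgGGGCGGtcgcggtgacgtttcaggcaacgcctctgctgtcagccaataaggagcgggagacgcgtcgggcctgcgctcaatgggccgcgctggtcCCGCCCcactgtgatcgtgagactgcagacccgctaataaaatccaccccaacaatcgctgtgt
MAT2A: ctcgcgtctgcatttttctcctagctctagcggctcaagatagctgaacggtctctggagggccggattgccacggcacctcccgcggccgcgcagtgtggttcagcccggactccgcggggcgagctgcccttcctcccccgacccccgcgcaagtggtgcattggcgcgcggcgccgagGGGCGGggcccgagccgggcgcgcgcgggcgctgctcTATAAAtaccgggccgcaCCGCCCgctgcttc
MAT1A: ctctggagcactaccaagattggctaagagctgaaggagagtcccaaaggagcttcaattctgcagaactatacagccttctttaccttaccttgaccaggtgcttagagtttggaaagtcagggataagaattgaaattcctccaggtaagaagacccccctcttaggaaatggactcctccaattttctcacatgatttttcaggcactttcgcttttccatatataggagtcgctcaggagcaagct
BHMT: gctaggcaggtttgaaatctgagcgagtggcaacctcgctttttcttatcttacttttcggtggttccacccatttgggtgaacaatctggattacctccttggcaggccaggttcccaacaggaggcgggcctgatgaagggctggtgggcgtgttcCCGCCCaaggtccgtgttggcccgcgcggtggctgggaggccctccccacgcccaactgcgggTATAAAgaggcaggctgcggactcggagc

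All 10 genes had at least 1 such window, 15 in all because AHCY, CBS and MTR have several annotated starts. The letters of the GC box occurred before at least 1 start of 7 genes (AHCY, BHMT, BHMT2, CBS, CTH, MAT2A and MTR), in 10 of the 15 windows, against 42.6% of 35116 windows of the same length. The windows of MTR overlap and hold the same GC box, so that site is counted once for each of them. TATAAA occurred 32 bases before the start of MAT2A and 29 bases before that of BHMT, against 10.7% of all windows. TGATGNAAN, the C/EBP-ATF response element, and CAAAGTCCA, a motif of the liver factor HNF4, were searched on both strands and matched in none of the 15, against 3.13% and 0.325% of all windows. In the 4 printed sequences no matches overlap. The windows of the 2 adenosyltransferase genes differed in composition, since that of MAT1A was 44.8% G and C with 2 CpG dinucleotides and that of MAT2A was 71.6% with 34. The median window had 58% and 11.

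Apart from AHCY, the genes were lowest on the 12 h array or on the 6 h array. Of the 18 probe sets, 9 had their lowest value at 12 h, 8 at 6 h, 1 at 0 h and none at 2 h. Over all 41091 probe sets the lowest value lay at 12 h in 27.5%, at 6 h in 21.2%, at 0 h in 26.8% and at 2 h in 24.5%. All probe sets of MAT1A, GNMT, BHMT, BHMT2 and CDO1 were lowest at 12 h. All probe sets of MAT2A, MTR and CTH, and 2 of the 3 of CBS, were lowest at 6 h. The probe set of AHCY was lowest at 0 h. These times hold for the deposited scaling. Scaling the arrays on bacterial RNAs added at hybridization adds 0.35 to each 12 h ratio to 0 h. That can move the lowest value of a probe set with a small 12 h drop to another time, and the tally was not repeated with it.

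**Figure D1:**
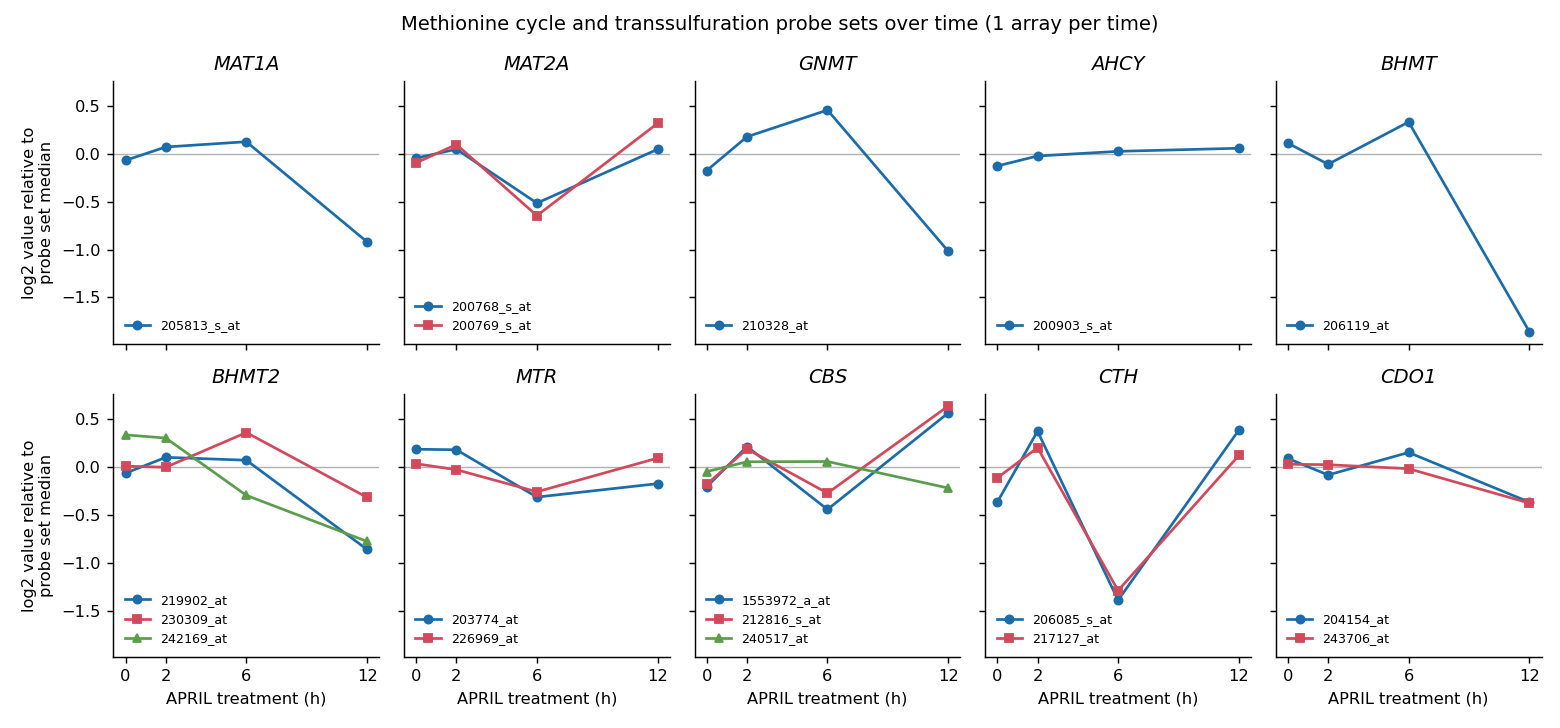
Deposited log2 value of each of the 18 probe sets (vertical axis, relative to the probe set's median over the 4 arrays) against hours of APRIL treatment, 1 panel per gene and 1 line per probe set, with 1 array per time and therefore no error bars. BHMT, GNMT and MAT1A reach -1.86, -1.02 and -0.92 at 12 h, while both CTH lines dip to -1.39 and -1.29 at 6 h.

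The 2 genes that make SAM moved in different directions between 6 and 12 h. MAT1A, the adenosyltransferase of adult liver, was read by 1 probe set at -0.07, 0.07, 0.12 and -0.92 on the 0, 2, 6 and 12 h arrays. It was flat on the first 3 arrays and low on the last, with a log2 ratio of -0.85 for 12 h over 0 h (1.80-fold lower, the 307th lowest of 19775 genes). Against the 6 h array it was -1.05. MAT2A, the catalytic subunit found in most tissues, had 0 to 12 h values of -0.10, 0.10, -0.65 and 0.32 in 1 probe set and of -0.05, 0.05, -0.52 and 0.05 in the other. Both were lowest at 6 h and back at or above their starting value at 12 h. Against 0 h, MAT2A had a ratio of -0.51 on the 6 h array (SD 0.058 over 2 probe sets, 1.42-fold lower) and of 0.25 on the 12 h array (SD 0.23), and the step between these arrays was 0.76 (SD 0.28). The 12 h value is within the SD of all genes at that time. All 3 probe sets of these genes carry the suffix _s_at, which means that their probes can match more than 1 transcript.

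GNMT, glycine N-methyltransferase, spends SAM on the methylation of glycine and so limits its level in liver. Its single probe set read -0.18, 0.18, 0.45 and -1.02 at 0, 2, 6 and 12 h. It was the only gene of the 10 whose ratio was positive and beyond 2 SD of all genes at 6 h, at 0.63 (1.55-fold higher, the 175th highest gene). The 12 h array was then far below, at -1.47 against 6 h (2.78-fold lower) and -0.84 against 0 h (1.79-fold lower). AHCY, which hydrolyses S-adenosylhomocysteine, had the smallest range of all 18 probe sets. Its single probe set read -0.13, -0.02, 0.02 and 0.06 at 0, 2, 6 and 12 h, so that the largest ratio against 0 h was 0.18, at 12 h.

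Among the enzymes that remethylate homocysteine, BHMT showed the largest difference of any of the 10 genes against 0 h. BHMT uses betaine as the methyl donor and is read by 1 probe set, at 0.11, -0.11, 0.33 and -1.86 on the 0, 2, 6 and 12 h arrays. The first 3 arrays lay within 0.44 of each other and the 12 h array lay far below them. The ratio for 12 h over 0 h was -1.97 (3.91-fold lower), the 12th lowest of 19775 genes, and for 12 h over 6 h it was -2.19 (4.56-fold lower), the 9th lowest.

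BHMT2, a close relative that takes its methyl group from S-methylmethionine, lies beside BHMT on chromosome 5. Its 3 probe sets had 0 to 12 h values of -0.07, 0.10, 0.07 and -0.86, of 0.01, -0.01, 0.36 and -0.32, and of 0.33, 0.30, -0.30 and -0.78. All were lowest at 12 h, but the third was already low at 6 h. Against 0 h the 12 h ratio was -0.80 (SD 0.40 over 3 probe sets, 1.74-fold lower), with single probe sets at -0.80, -0.33 and -1.11. At 6 h the probe sets disagreed in sign, at 0.14, 0.35 and -0.63. MTR, the vitamin B12-dependent methionine synthase that serves nearly all tissues, showed no such drop. Its 2 probe sets read 0.18, 0.18, -0.32 and -0.18, and 0.03, -0.03, -0.26 and 0.09. Both were lowest at 6 h, where the ratio was -0.40 (SD 0.15, 1.32-fold lower). At 12 h they differed in sign, with a gene ratio of -0.15 (SD 0.30) that became 0.20 when arrays were scaled on bacterial RNAs added at hybridization, the only sign among the 10 genes to change at 12 h under that scaling.

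**Figure D2:**
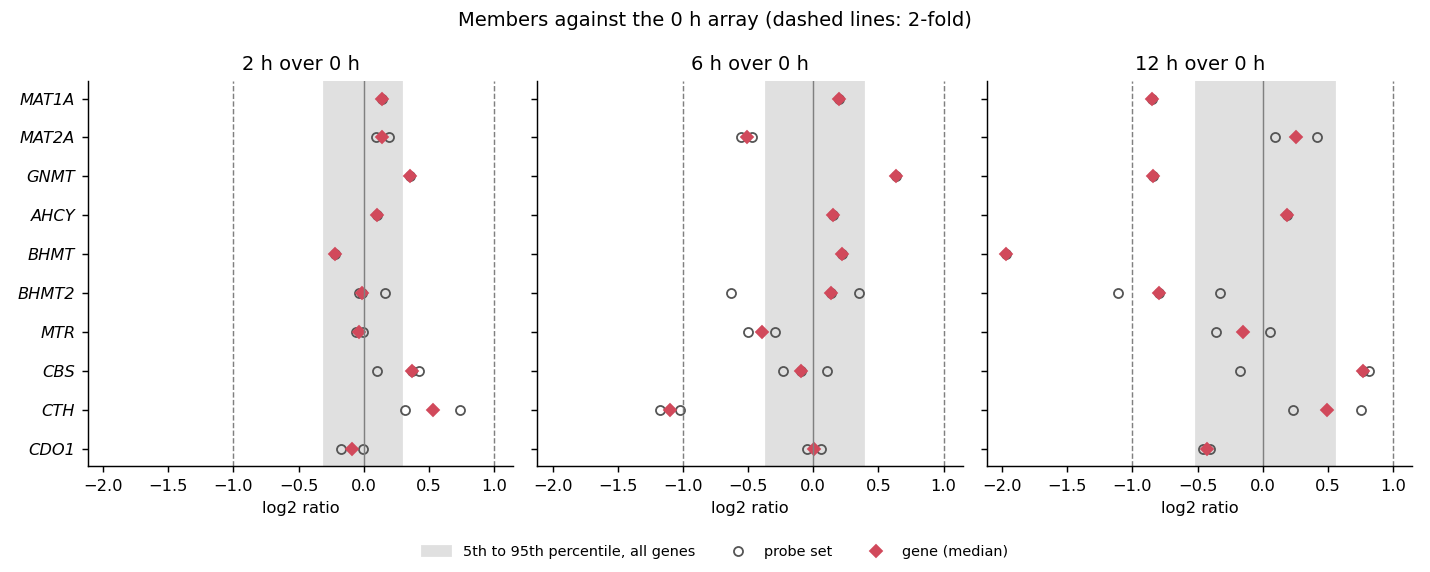
Log2 ratios of the 10 genes at 2, 6 and 12 h over 0 h (horizontal axes), with open circles for single probe sets, red diamonds for the gene's median, a grey band for the 5th to 95th percentile of all 19775 genes and dashed lines at 2-fold. CTH lies past the lower 2-fold line at 6 h (-1.10) and BHMT at 12 h (-1.97), and no gene lies past the upper line.

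Of the enzymes on the transsulfuration side, CBS and CTH had gene ratios above 0 at 12 h, and CDO1 had one below 0. CBS, cystathionine beta-synthase, joins homocysteine to serine. Its probe set 1553972_a_at read -0.21, 0.21, -0.45 and 0.56 at 0, 2, 6 and 12 h, and 212816_s_at read -0.18, 0.18, -0.28 and 0.63. In both the 12 h array was highest and the 6 h array lowest. The third, 240517_at, read -0.05, 0.05, 0.05 and -0.22 and so ran against the others at 12 h. Against 0 h the gene stood at 0.37 on the 2 h array (SD 0.17) and -0.09 on the 6 h array (SD 0.17). On the 12 h array it stood at 0.77 (SD 0.56, 1.71-fold higher), the highest of the 10. Without the _s_at probe set, which leaves 1553972_a_at and 240517_at, the 12 h ratio was 0.30. As the mean over all its probe sets it was 0.47, below that of CTH at 0.49. RefSeq lists CBSL as a synonym of CBS, and whether the probes read more than 1 locus was not tested.

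CTH, cystathionine gamma-lyase, releases cysteine from cystathionine and also makes hydrogen sulfide. Probe set 206085_s_at read -0.37, 0.37, -1.39 and 0.38 at 0, 2, 6 and 12 h, and 217127_at read -0.12, 0.20, -1.29 and 0.12. Both were above 0 h at 2 h, far below it at 6 h and near the 2 h value again at 12 h. The 2 h array gave a ratio to 0 h of 0.53 (SD 0.30, 1.44-fold higher, the 97th highest gene). The 6 h array gave -1.10 (SD 0.11, 2.14-fold lower, the 39th lowest gene), and the 12 h array gave 0.49 (SD 0.37, 1.41-fold higher). From 2 h to 6 h CTH was the 6th lowest of all genes, at -1.63 for 6 h over 2 h (SD 0.19, 3.09-fold lower). From 6 h to 12 h it was the 26th highest, at 1.59 (SD 0.26, 3.01-fold higher). CDO1, cysteine dioxygenase, starts the breakdown of cysteine to sulfate and taurine. Its probe sets read 0.09, -0.09, 0.15 and -0.37, and 0.03, 0.02, -0.02 and -0.38. Both were lowest at 12 h, with a gene ratio of -0.43 (SD 0.036, 1.35-fold lower). With the arrays scaled on the bacterial RNAs that ratio was -0.08.

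Counted at 2-fold, few of the 10 genes passed in any single comparison with 0 h. At 2 h none was past 2-fold in either direction, where 0.0354% of all genes were past it higher and 0.0101% lower. At 6 h none was past 2-fold higher, against 0.101% of all genes, and 1 was past it lower (CTH), against 0.283%. At 12 h none was past 2-fold higher, against 0.946%, and 1 was past it lower (BHMT), against 0.986%. The nearest gene short of 2-fold was GNMT at 6 h (0.63) and MAT1A at 12 h (-0.85). Over the 10 genes the median ratio was 0.12 after 2 h, 0.07 after 6 h and -0.29 after 12 h. Over all genes it was 0.02, 0.05 and 0.01. These 3 comparisons share the 0 h array.

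A lower bar, beyond 2 SD of all genes, took 1 of the 10 genes at 2 h (CTH), 3 at 6 h (CTH and MAT2A lower, GNMT higher) and 5 at 12 h (BHMT, MAT1A, GNMT and BHMT2 lower, CBS higher). The share of all genes past it was 5.08%, 5.23% and 5.43% at these times. The genes named at 12 h depend on the scaling. With the arrays scaled on the bacterial RNAs, MAT1A (-0.50), GNMT (-0.49) and BHMT2 (-0.44) lay within 2 SD there. CTH (0.85) then lay beyond it, as BHMT and CBS still did. Since the genes were picked with such ratios known, the gap to those shares is not evidence that the pathway differs from other genes.

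The successive steps separated the genes most clearly between 6 h and 12 h. For 6 h over 2 h, 1 gene was past 2-fold lower (CTH), against 0.329% of all genes, and none higher, against 0.116%. For 12 h over 6 h, 3 were past 2-fold lower (BHMT, GNMT and MAT1A), against 0.885% of all genes, and 1 higher (CTH), against 0.799%. Next in that step came CBS at 0.91 (SD 0.71 over 3 probe sets), MAT2A at 0.76 and BHMT2 at -0.68 (SD 0.23). Beyond 2 SD of all genes lay 7 of the 10, against 5.02% of all genes. The remaining genes were CDO1 at -0.44, MTR at 0.25 and AHCY at 0.03. Both steps contain the 6 h array with opposite sign, so a gene that is low on that array alone appears low in the first step and high in the second.

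**Figure D3:**
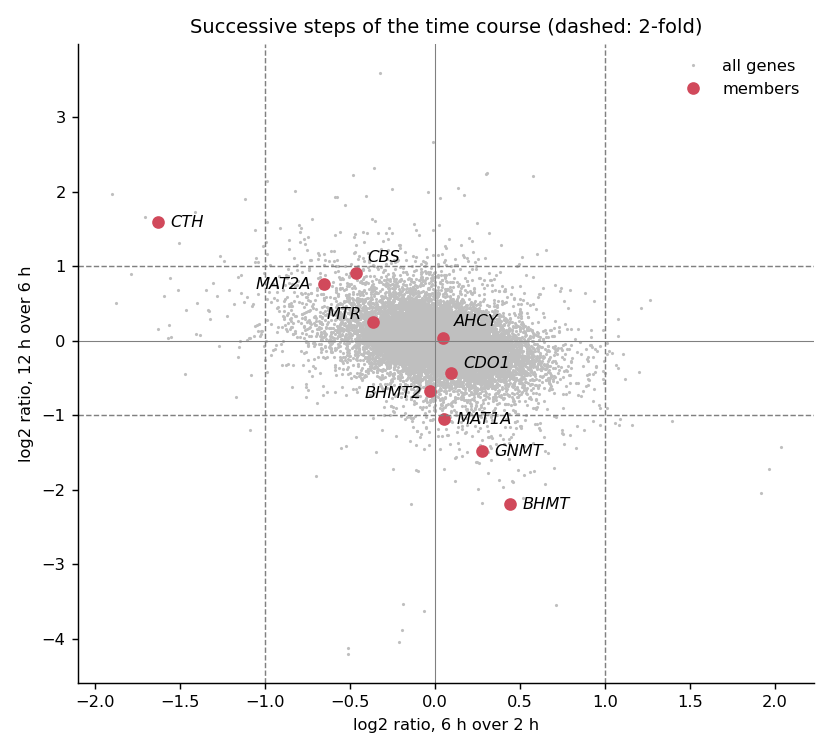
Log2 ratio of 12 h over 6 h (vertical) against that of 6 h over 2 h (horizontal) for all 19775 genes (grey) and the 10 pathway genes (red, labelled), with dashed lines at 2-fold. CTH stands at -1.63 and 1.59 in the upper left, BHMT at 0.44 and -2.19 at the bottom, and AHCY near the centre.

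Likeness between time courses was measured as the Euclidean distance over the 3 ratios against 0 h, as a description over 3 numbers that share the 0 h array. The closest pair of the 10 was MAT1A and BHMT2 (0.17), and the farthest was BHMT and CTH (2.89). BHMT2 entered as the median of 3 probe sets that disagreed in sign at 6 h, at 0.14, 0.35 and -0.63. Its distances therefore depend on that summary, and they were not recomputed with another. Paralogs were not the closest to each other, with a distance of 1.31 between MAT1A and MAT2A and of 1.19 between BHMT and BHMT2. The nearest of the 10 to BHMT was MAT1A at 1.17, barely nearer than BHMT2, and both BHMT and BHMT2 were lowest at 12 h. For CBS, the highest of the 10 at 12 h, the nearest of all genes were PLEKHH2 (distance 0.063), SPHK1, a sphingosine kinase (0.072), and WARS1, the cytosolic tryptophanyl-tRNA synthetase (0.086). The 12 h ratio of CBS had an SD of 0.56 over 3 probe sets, far larger than these distances. Its neighbours therefore depend on how its probe sets are combined, and they were not sought with another summary. For BHMT, the lowest, they were SPC25, a kinetochore subunit (0.23), E2F8, a repressor of the E2F family (0.26), and DIO1, the thyroid hormone deiodinase of liver (0.26). SPC25 read -1.77, E2F8 -1.79 and DIO1 -1.89 for 12 h over 0 h, with 1 probe set each.

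Genes around the cycle were read from 6 lists, with values for 48 of 53 entries. Of these 48, none was past 2-fold on the 2 h array and 1, lower, on the 6 h array. On the 12 h array 1 was past it higher and 2 were lower, to be set beside the shares of all genes given above. The median of the 48 was 0.06 after 2 h, -0.02 after 6 h and -0.07 after 12 h.

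The choline and betaine list supplies the methyl donor of BHMT and handles its products. Of its 7 genes 6 were below 0 at 12 h, where 47.7% of all genes were, with a median of -0.16 against 0.01 over all genes. ALDH7A1, which can oxidise betaine aldehyde to betaine, was past 2-fold lower at -1.13 (SD 0.66 over 3 probe sets). SLC6A12, the betaine and GABA transporter, was past 2-fold higher at 1.60, on 1 probe set, with 0.02 at 2 h and 0.22 at 6 h.

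All 9 genes of SAM-dependent methyltransferases were below 0 at 12 h, as were 47.7% of all genes, with a median of -0.29 and 1 past 2-fold. That gene was DNMT3B, a de novo DNA methyltransferase, at -1.15, which had been at -0.30 at 2 h and -0.47 at 6 h. AS3MT, the arsenite methyltransferase, was at -0.85 at 12 h. Each of these 2 rests on 1 probe set. Some others lay near 0 or within the SD of their probe sets. PEMT, which makes phosphatidylcholine, was at -0.0020, and DNMT3A was at -0.09 (SD 0.43 over 3 probe sets). GAMT, at -0.29 (SD 0.11 over 3 probe sets), and DNMT1, at -0.39 on 1 probe set, did neither. Scaling the arrays on bacterial spike-in RNAs adds 0.35 to each 12 h ratio, which puts the medians of this list, of the choline and betaine list and of the 10 pathway genes above 0. The median of all genes rises by the same 0.35, so all 3 medians stay below it by as much as before.

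In the glutathione list, SLC7A11, the cystine importer, was past 2-fold lower at 6 h, and its steps were -1.90 from the 2 h to the 6 h array and 1.97 from there to the 12 h array, and against 0 h it stood at 0.47 on the 2 h array and 0.53 on the 12 h array (SD 0.13 over 3 probe sets). These values lie beside the CTH steps of -1.63 and 1.59. CHAC1, which degrades glutathione, was at 0.64 at 12 h, and the list median over 7 genes was 0.14 after 2 h, -0.11 after 6 h and 0.21 after 12 h. In the sulfide and taurine list the median over 8 genes was 0.21 after 2 h, -0.06 after 6 h and 0.0033 after 12 h. Its largest 12 h ratios were those of GOT1, the cytosolic aspartate aminotransferase, at 0.85 and MPST, mercaptopyruvate sulfurtransferase, at 0.68, with no gene past 2-fold.

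The remaining lists had no gene past 2-fold against 0 h. Among partners of the cycle enzymes the median over 7 genes was -0.10 at 12 h. ADK, adenosine kinase, which clears the adenosine made by AHCY, was at -0.64 (SD 0.13 over 2 probe sets), and MTRR, which reactivates MTR, was at 0.53 (SD 0.032 over 2). Among polyamine and methionine salvage genes the median over 10 was 0.07 at 12 h. ENOPH1, a salvage enzyme, was at -0.64 and ODC1, ornithine decarboxylase, at 0.39.

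**Figure D4:**
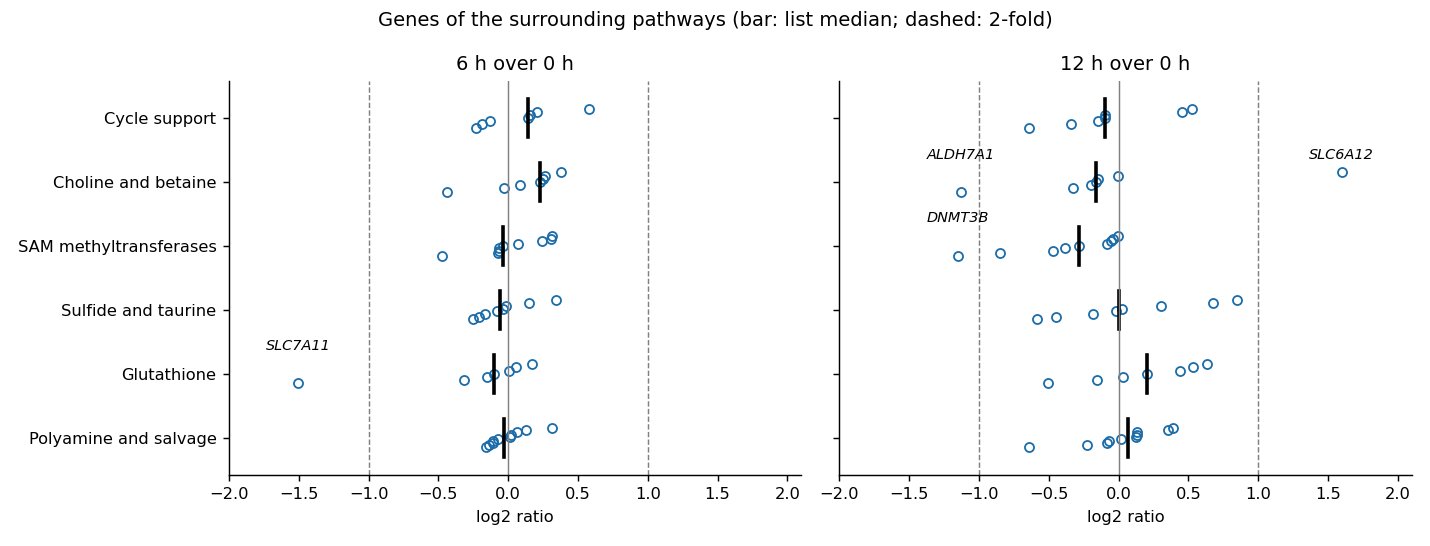
Log2 ratios of the 48 genes of 6 surrounding lists at 6 h and 12 h over 0 h (horizontal axes), 1 circle per gene, with a black bar at each list's median, dashed lines at 2-fold and names for genes past it. SLC7A11 is past 2-fold lower at 6 h, and at 12 h ALDH7A1 and DNMT3B are past it lower and SLC6A12 higher.

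The label of the cells could not be checked against marker levels, since the deposited values hold none. Of 7 hepatocyte markers, among them ALB, AFP and APOA1, none was past 2-fold at any time, and at 12 h over 0 h they ranged from -0.17 (TF) to 0.46 (TTR). The 12 h differences of MAT1A, GNMT and BHMT stood beside hepatocyte markers with a median of 0.05. Of these markers, ALB and TF had SDs of 0.39 and 0.47 over 4 probe sets each at 12 h. Whether the differentiation of the cells changed was not tested. Of the other cell types' markers, 3 immune, 5 fibroblast and 5 endothelial genes were read, with none past 2-fold against 0 h and with 12 h medians of 0.06, 0.12 and -0.14. PDGFRB, a fibroblast marker with 1 probe set, was at 0.25 after 2 h, -0.49 after 6 h and 0.89 after 12 h, and it was the marker past 2-fold in the last step, at 1.39 for 12 h over 6 h. In the same step the other fibroblast markers were at 0.14 (COL1A1), -0.12 (COL1A2), -0.10 (DCN) and 0.0037 (LUM). CTH was at 1.59 and CBS at 0.91 there. The part of other cell types in the results was not tested. The bacterial spike-in RNAs had a median ratio to 0 h of 0.01 after 2 h, 0.06 after 6 h and -0.35 after 12 h, so directions at 12 h are relative to the median gene.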

How the data were processed

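Total RNA of 4 HepG2 cultures was hybridised to 1 array each. The authors deposited log2 values of 54675 probe sets. The method was RMA, per the submitters' processing notes, and no version is given. RMA corrects background, makes array distributions equal and summarises probes. In the deposited values each probe set's median over the arrays was 0 within 5e-07. Base 2 and the direction (higher means more transcript) are assumed, as neither is stated. Column medians were -0.0050, 0, 0.011 and -0.0043 at 0, 2, 6 and 12 h. The number of arrays limits precision.

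Symbols came from the platform annotation, updated by gene identifier to RefSeq GRCh38.p14. Probe sets without a gene symbol, those with several symbols (1801) and 62 control probe sets were left out, which left 41091. Ratios between arrays, medians over probe sets and counts past 2-fold were computed in Python 3.11.15 with pandas 2.3.3. The code was tested on simulated data. Samples were grouped by the time in their titles. Members and lists were chosen with earlier results of these data known. The genes named are the 10 members, the 2 of each list with the largest 12 h ratios, any list gene past 2-fold, and the 3 genes nearest to the highest and the lowest member. PEMT, DNMT3A, GAMT, DNMT1, DMGDH, TF, TTR and the fibroblast markers were named after their values were seen. Sequences are RefSeq's, with all 10 members matched. Alternatives were other centrings, probe set choices, thresholds, and a reference averaged over the other 3 arrays.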

Additional observations from a re-analysis of the deposited data

Results flagged for a closer look

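For 5 of the 10 genes the ratios of 12 h and of 6 h against 0 h had opposite signs, both larger than the robust SD of all genes for 2 h over 0 h (0.16). This held for 5.23% of all genes. The difference was not tested, since each time is 1 array. BHMT was at -1.97 at 12 h and 0.22 at 6 h, a difference of -2.19. GNMT was at -0.84 and 0.63, a difference of -1.47, and MAT1A at -0.85 and 0.19, a difference of -1.05. In the other direction, CTH was at 0.49 at 12 h and -1.10 at 6 h, a difference of 1.59, and MAT2A at 0.25 and -0.51, a difference of 0.76. BHMT, GNMT and MAT1A rest on 1 probe set each. With spike-in centring the count was again 5, against 15.8% of all genes, with GNMT, CTH and MAT2A in both. BHMT (0.14 at 6 h) and MAT1A (0.11 at 6 h) then lay within 0.16, and MTR (0.20 at 12 h and -0.48 at 6 h) and CBS (1.12 and -0.17) met both conditions.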

How the results depend on the processing

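No paired analysis was possible because each time is 1 array. Of 171 single-gene ratios recomputed under the alternatives, 137 moved by less than the robust SD of all genes for 2 h over 0 h (0.16), and 34 moved further. Many of the 137 could not have moved further. Centring on the array median, or on spike-ins at 2 and 6 h, shifts all ratios of a time by 1 small constant. A gene with 1 probe set has the same value however probe sets are combined. The 10 that moved with spike-in centring were the 12 h ratios, to each of which it adds 0.35. The count of 137 is therefore no measure of how stable the ratios are. Of the 171, 11 changed sign, 10 of them from a value within 0.16 of 0 (BHMT2 and CDO1 at 2 and 6 h, AHCY and MTR at 2 h, MTR at 12 h). The other was BHMT at 2 h, at 0.36 against the mean of the other 3 arrays, which holds its low 12 h value. At 6 h, 1 gene was past 1.5-fold higher (GNMT), against 1.15% of all genes, and 0 were past 3-fold lower, against 0.0354%. At 12 h, 1 was past 2-fold higher with spike-in centring (CBS, at 1.12), against 3.51% of all genes, and 1 past 1.5-fold higher, against 4.46%. Past 2-fold lower at 12 h were 2 with the probe set of widest range (BHMT2 at -1.11 added), where 2.57% of all genes were, and 2 against the mean of the other 3 arrays (GNMT at -1.17 added), where 0.753% were. Past 1.5-fold lower were 4, against 3.7%. With probe sets of the suffixes _s_at and _x_at left out, CTH at 12 h was at 0.23. MAT1A, MAT2A and AHCY have no value in that setting. BHMT2 at 6 h was at -0.05 as the mean over probe sets and at -0.63 by the probe set of widest range. With 1 array per time no alternative can show variation between cultures.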

Other observations

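BHMT, BHMT2 and DMGDH, the dimethylglycine dehydrogenase that acts on the product of BHMT, are neighbours in the RefSeq annotation, with DMGDH and BHMT2 on opposite strands and their starts 93 bases apart. The DMGDH probe set 231790_at read -0.07, 0.07, 0.41 and -0.51 at 0, 2, 6 and 12 h, a ratio of -0.44 for 12 h over 0 h and of -0.92 for 12 h over 6 h. The second, 231591_at, read -0.09, 0.13, -0.07 and 0.07, with 0.15 for 12 h over 0 h. BHMT was at -2.19 and BHMT2 at -0.68 for 12 h over 6 h. The probe sets of DMGDH thus differed in sign in that step, in which 51.5% of all probe sets were lower at 12 h. DMGDH was singled out after its values were seen.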
